A study of Mus musculus with 12 samples.

Results

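Sox5, Sox6, Sox9, Fgfr3, Pth1r, Pthlh, Mef2c and Trps1, genes of transcription factors, of 2 receptors and of 1 ligand that steer chondrocyte differentiation in the growth plate, were followed across the 12 microarrays of a mouse study of JUN in osteoprogenitors, the sorted precursors of bone and cartilage. They were chosen by name, and each was read through the probe sets that the platform annotation gives to that symbol alone. Probe sets were found for 7 of the 8 genes, 26 in all, and Pthlh was not analysed here. The array table holds 18193 genes with a probe set of this kind, and 12516 of them, all 7 regulators included, were bright enough to be tested, which here means above the median of the array in at least 2 arrays.

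All mice were JUN inducible and on a regular diet, and doxycycline reached the pups through the drinking water of the mother. Neither the promoter that drives the transgene nor the age of the pups is stated in the sources used here. Cells named SSC, CSP and Thy were sorted after 2 days of induction from limb bones, skull cap, scapula, vertebrae and ribs, and their RNA was put on 1 array per sample. The 6 groups of 2 arrays are SSC JUN, SSC -JUN, CSP JUN, CSP -JUN, Thy JUN and Thy -JUN, where -JUN is read as inducible mice without induction. The design text writes BCSP and Thy+ for CSP and Thy. By the titles, the 2 arrays of a group come from different mice and the populations share mice. Mouse 4 gave array JUN 1 and mouse 7 array JUN 2 of every population, mouse 3 gave array -JUN 1 of every population, mouse 3b gave array -JUN 2 of CSP and Thy, and mouse 10 gave SSC -JUN 3. For mice 3 and 7 this joins a dated title to undated ones, which the labels do not settle. Of the 4 SSC arrays, 3 carry a date in their titles, SSC JUN 2, SSC -JUN 1 and SSC -JUN 3, and SSC JUN 1 and all CSP and Thy arrays carry none. SSC against CSP or Thy, and SSC JUN 1 against the rest of SSC, thus run together with the dated title, and what the date marks is not given in the sources used here.

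Cartilage templates of long bones grow as chondrocytes proliferate, enlarge and give way to bone. SOX9 is needed to form cartilage and works with SOX5 and SOX6 on the genes of the cartilage matrix. PTHrP, the product of Pthlh, acts through its receptor PTH1R to delay hypertrophy in a feedback loop with Indian hedgehog, FGFR3 restrains proliferation, MEF2C drives hypertrophy against class IIa histone deacetylases, and TRPS1 is a GATA-type repressor of chondrocyte maturation.

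All levels are log2 expression values deposited after RMA, so a difference of 1 is a 2-fold change. They can be compared between arrays for one probe set and not between genes. Jun itself lay between 12.06 and 13.65 in all 12 arrays and was not called higher with JUN in any population. Its difference between JUN and -JUN was 0.32 ± 0.41 in SSC (SE, 2 arrays against 2, limma, adjusted p = 0.804), -0.43 in CSP (adjusted p = 0.995) and -0.27 in Thy (adjusted p = 0.985). Whether its probe sets read the transgene is not given in the sources used here, so the induction could not be checked on these arrays. Thy1, the surface protein behind the name Thy, lay at 7.28 to 8.90 in SSC, 8.04 to 9.63 in CSP and 12.80 to 13.30 in Thy, and Eng, which encodes CD105, lay at 7.95 to 8.24 in SSC, 9.30 to 10.40 in CSP and 9.07 to 10.24 in Thy. Xist, made from an inactive X chromosome, read 12.49 to 13.20 in all arrays of mouse 3 and 6.11 to 7.29 in those of other mice. Mouse 3 gave -JUN arrays alone, 1 in each population, so high Xist runs partly with the arm in each JUN comparison.

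The 3 following arrays stood apart in cartilage genes, namely SSC JUN 1 and CSP JUN 1, both of mouse 4, and CSP -JUN 2 of mouse 3b. The mean of 12 chondrocyte markers was 13.80, 13.76 and 13.63 in them and between 8.52 and 10.98 in the other 9. They hold both arms and 2 of the populations, and the comparisons of the regulators are also given without them. In sorted bulk RNA, more cells of a type and more RNA per cell cannot be told apart.

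The SOX trio was highest in these 3 arrays, which hold both arms. Sox5 stood at 10.66 and 8.86 in SSC JUN, against 8.58 and 8.48 in SSC -JUN. It stood at 10.22 and 8.79 in CSP JUN, against 8.67 and 9.89 in CSP -JUN. Thy JUN cells had 9.46 and 8.59, against 8.70 and 9.06 in Thy -JUN cells. Only in SSC did the arms keep clear of each other, and there SSC JUN 2 was close to the 2 arrays without induction. Its means were 9.76 ± 1.27 in SSC JUN and 8.53 ± 0.07 in SSC -JUN, 9.50 ± 1.01 in CSP JUN and 9.28 ± 0.87 in CSP -JUN, and 9.03 ± 0.61 in Thy JUN and 8.88 ± 0.25 in Thy -JUN (SD, n = 2, as for all group means). From high to low the groups ran SSC JUN, CSP JUN, CSP -JUN, Thy JUN, Thy -JUN, SSC -JUN, and the last pair was the sole pair of neighbours whose arrays did not overlap.

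Sox6, the close relative that pairs with SOX5, had the widest range of the 7 regulators, 3.66 over the 12 arrays, beside a median range of 1.47 over all genes tested. Its levels were 11.28 and 8.65 in SSC JUN, against 8.50 and 7.62 in SSC -JUN. CSP JUN arrays read 10.31 and 9.52, against 8.05 and 10.09 in CSP -JUN arrays. In Thy JUN it was 9.23 and 8.74, against 8.56 and 8.35 in Thy -JUN. By the probe set used, both JUN arrays were above both -JUN arrays in SSC and in Thy. In CSP the array of mouse 3b without induction lay between the JUN arrays. In Thy each of the other Sox6 probe sets had both JUN arrays below both -JUN arrays, one of them with 5.89 and 6.87 against 7.38 and 7.42. In SSC not all of them kept the arms apart. By the probe set used, the means were 9.96 ± 1.86 in SSC JUN and 8.06 ± 0.62 in SSC -JUN, 9.91 ± 0.56 in CSP JUN and 9.07 ± 1.44 in CSP -JUN, and 8.98 ± 0.35 in Thy JUN and 8.45 ± 0.15 in Thy -JUN. The order from high to low was that of Sox5, and neighbours overlapped except Thy JUN and Thy -JUN.

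Sox9, the gene that opens the chondrocyte programme, stood at 10.65 and 8.55 in SSC JUN, against 8.90 and 8.01 in SSC -JUN. Its CSP JUN arrays had 10.40 and 8.29, against 8.82 and 10.51 in CSP -JUN. Thy JUN arrays had 8.53 and 8.28, against 8.0 and 9.16 in Thy -JUN. The arms overlapped in every population, and the 2 highest arrays outside SSC were one of each arm. Mean levels were 9.60 ± 1.49 in SSC JUN and 8.46 ± 0.63 in SSC -JUN, 9.35 ± 1.49 in CSP JUN and 9.66 ± 1.20 in CSP -JUN, and 8.41 ± 0.17 in Thy JUN and 8.58 ± 0.82 in Thy -JUN. CSP -JUN came first in this order, then SSC JUN, CSP JUN, Thy -JUN, SSC -JUN and Thy JUN, with overlap between all neighbours.

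**Figure D1:**
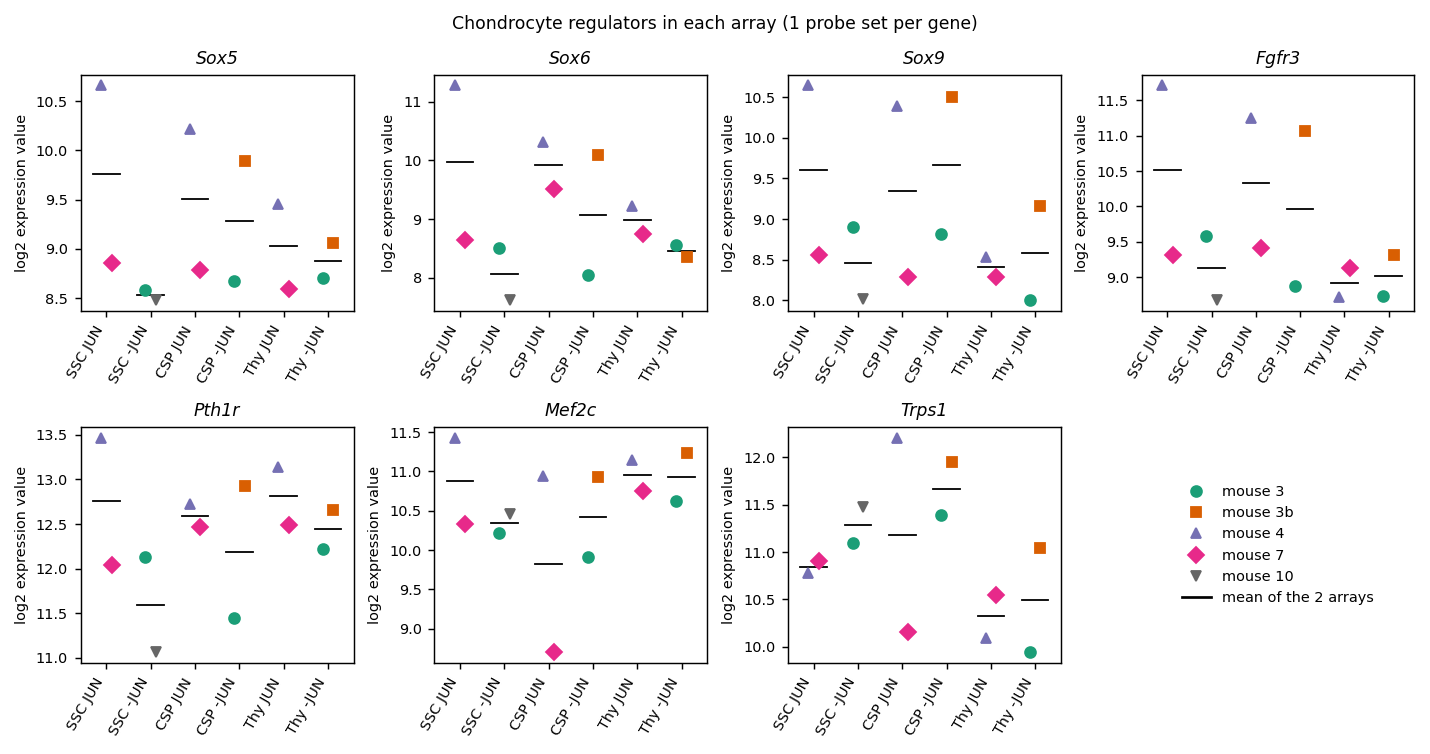
Log2 expression of the 7 regulators by group, 1 panel a gene, with the JUN group left of the -JUN group in each population. Each point is 1 array, its symbol gives the mouse, and the bar is the mean of the 2 arrays. In Sox5, Sox6, Sox9 and Fgfr3 the arrays SSC JUN 1, CSP JUN 1 and CSP -JUN 2 are the 3 highest.

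RefSeq promoters on mouse build GRCm38.p6, each running from 250 bases before to 50 after a start site, were found for Sox5, Sox6, Fgfr3, Pth1r, Mef2c and Pthlh, 16 in all, and those of Sox9 and Trps1 were not analysed here. They are shown because Sox5, Sox6 and Fgfr3 varied together over the 12 arrays, and because JUN and the SOX trio bind known motifs. The correlation with Fgfr3 was 0.88 for Sox5 and 0.89 for Sox6. Over the 9 arrays other than SSC JUN 1, CSP JUN 1 and CSP -JUN 2 it was -0.13 for Sox5 and 0.33 for Sox6. AACAAT, the core bound by SOX proteins, TGANTCA, a loose pattern for the AP-1 site bound by JUN with its partners, and AGATAA, the site of GATA-type factors such as TRPS1, were searched on both strands. The N stands for any base, where the usual AP-1 site has C or G. None of the 3 patterns overlaps another in the promoters printed. Each was found in 1 of the 16 promoters (AGATAA in another Sox6 promoter), and in 10.7% (AACAAT), 7.81% (TGANTCA) and 11.2% (AGATAA) of all 32851 mouse promoters of this length. The Sox5 promoter at chr6:143947057-143947356, minus strand, held none of them, and neither did the Fgfr3 promoter at chr5:33721474-33721773, plus strand. One of 6 Sox6 promoters, at chr7:115824661-115824960, minus strand, held the SOX core 2 times, 236 and 225 bases before the start, in capitals below. The match to the AP-1 pattern, in capitals and 137 bases before the start, is in the Mef2c promoter at chr13:83573357-83573656, plus strand. It reads TGAATCA, with A in the middle, and so is not the usual AP-1 site. A match here is a run of letters and not a shown binding site.
Sox5 promoter: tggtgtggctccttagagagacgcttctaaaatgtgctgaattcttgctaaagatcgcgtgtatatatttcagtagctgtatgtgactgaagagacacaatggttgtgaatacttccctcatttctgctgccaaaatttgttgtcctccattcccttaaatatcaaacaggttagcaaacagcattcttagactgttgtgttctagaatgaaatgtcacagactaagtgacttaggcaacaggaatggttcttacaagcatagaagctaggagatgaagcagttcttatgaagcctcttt
Sox6 promoter: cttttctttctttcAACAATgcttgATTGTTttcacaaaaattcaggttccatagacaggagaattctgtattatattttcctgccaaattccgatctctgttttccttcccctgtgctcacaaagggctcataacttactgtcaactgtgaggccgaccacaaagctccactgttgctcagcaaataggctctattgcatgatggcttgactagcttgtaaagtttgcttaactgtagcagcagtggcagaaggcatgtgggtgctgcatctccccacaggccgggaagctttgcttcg
Fgfr3 promoter: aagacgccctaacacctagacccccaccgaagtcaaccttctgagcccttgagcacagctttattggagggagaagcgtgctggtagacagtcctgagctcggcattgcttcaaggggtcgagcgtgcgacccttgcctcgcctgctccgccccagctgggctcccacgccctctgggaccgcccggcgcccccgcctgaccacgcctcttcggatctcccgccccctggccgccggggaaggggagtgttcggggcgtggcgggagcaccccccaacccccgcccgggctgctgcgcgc
Mef2c promoter: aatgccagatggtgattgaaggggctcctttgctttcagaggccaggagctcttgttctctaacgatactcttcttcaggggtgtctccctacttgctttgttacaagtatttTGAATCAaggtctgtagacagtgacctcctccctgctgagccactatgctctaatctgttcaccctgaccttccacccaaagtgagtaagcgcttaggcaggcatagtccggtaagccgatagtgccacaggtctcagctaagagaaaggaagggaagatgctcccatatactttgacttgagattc

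Among the other SOX genes, 6 of 10 were tested, and they did not share the order of the trio: none of the 6 had its 3 highest values in SSC JUN 1, CSP JUN 1 and CSP -JUN 2. Sox10, a factor of Schwann cells and other neural crest cells, was higher in SSC than in CSP by 2.80 ± 0.35 (SE, 4 arrays against 4, limma, adjusted p = 0.00368) and lower in CSP than in Thy, with a difference of -3.06 ± 0.35 (adjusted p = 0.00272). Sox2, known from stem cells and also expressed by Schwann cells, was higher in SSC than in CSP by 4.38 ± 0.70 (adjusted p = 0.0176). With the mouse as a block, the SSC minus CSP differences became 2.71 for Sox10 (adjusted p = 0.0608) and 4.10 for Sox2 (adjusted p = 0.0957) and were no longer called, while Sox10 in CSP against Thy stayed called (adjusted p = 0.00907). Of 7 tested Schwann cell markers, 3 were called higher in SSC than in CSP and 3 lower in CSP than in Thy, Sox10, Mbp and Erbb3 in each case. With the block, Mbp alone of these stayed called in SSC against CSP (adjusted p = 0.0414), and the part of Schwann cells in the Sox10 and Sox2 values was not tested. Without the 3 arrays the SSC minus CSP difference was 2.26 for Sox10 (adjusted p = 0.0571) and 3.25 for Sox2 (adjusted p = 0.284). Mbp and Erbb3 also lost their call there (adjusted p = 0.0906 for both), and Mbp lost it in CSP against Thy (adjusted p = 0.218). With the dated title as a term, Sox2 was not called (adjusted p = 0.141). Leaving out mouse 7 also ended this call for Sox10, and for Sox2 so did leaving out any single one of SSC JUN 2, SSC -JUN 3, CSP JUN 1, CSP -JUN 1 and CSP -JUN 2.

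Fgfr3, the receptor whose activation in chondrocytes shortens bones, gave the widest spread within groups of the 7, an SD of 1.12 beside a median of 0.40 over all genes tested. It stood at 11.71 and 9.31 in SSC JUN, against 9.58 and 8.68 in SSC -JUN. Levels in CSP JUN were 11.25 and 9.41, against 8.88 and 11.06 in CSP -JUN. Those in Thy JUN were 8.72 and 9.13, against 8.74 and 9.31 in Thy -JUN. The arms overlapped in each population, and the 4 Thy arrays lay close together. Group means were 10.51 ± 1.70 in SSC JUN and 9.13 ± 0.64 in SSC -JUN, 10.33 ± 1.30 in CSP JUN and 9.97 ± 1.54 in CSP -JUN, and 8.92 ± 0.29 in Thy JUN and 9.03 ± 0.40 in Thy -JUN. They ran from SSC JUN over CSP JUN, CSP -JUN, SSC -JUN and Thy -JUN down to Thy JUN, with overlap between all neighbours.

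The genes read with Fgfr3, namely other FGF receptors, their ligands and feedback genes, gave 0 of 13 past the threshold in any comparison by limma. At most 3 of 13, in SSC against Thy, had an unadjusted p under 0.05, beside 17.7% of all genes tested, so this count is near the background. All 3 were lower in SSC on average, Spry4, a feedback inhibitor of FGF signalling, by -1.23 ± 0.47 (adjusted p = 0.216), Fgf18, a ligand of FGFR3 in cartilage, by -0.60 ± 0.24 (adjusted p = 0.23), and Fgfr1 by -0.61 ± 0.28 (adjusted p = 0.276). The median difference of the 13 genes between SSC and Thy was -0.43, beside -0.09 for all genes and 0.84 ± 0.62 for Fgfr3 itself (adjusted p = 0.476). For JUN in SSC the genes of lowest p were Snai1 at 1.02 ± 0.50 and Fgfr1 at 0.78 ± 0.42 (adjusted p = 0.69 for both).

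Pth1r, the receptor of PTH and PTHrP, has 1 probe set and was bright in every array. SSC JUN arrays had 13.47 and 12.04, against 12.13 and 11.06 in SSC -JUN. CSP JUN arrays had 12.72 and 12.47, against 11.45 and 12.93 in CSP -JUN. In Thy JUN it stood at 13.14 and 12.49, against 12.22 and 12.66 in Thy -JUN. The 3 arrays of mouse 4 read 13.47, 12.72 and 13.14, and the arms overlapped in all populations. Means were 12.76 ± 1.01 in SSC JUN and 11.59 ± 0.76 in SSC -JUN, 12.60 ± 0.18 in CSP JUN and 12.19 ± 1.04 in CSP -JUN, and 12.81 ± 0.47 in Thy JUN and 12.44 ± 0.31 in Thy -JUN. In order they ran Thy JUN, SSC JUN, CSP JUN, Thy -JUN, CSP -JUN, SSC -JUN, so the 3 JUN groups had the 3 highest means while every pair of neighbours overlapped. Unlike the SOX trio and Fgfr3, Pth1r did not single out the arrays rich in cartilage genes, since Thy JUN 1 was its second highest.

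Genes of the PTHrP and hedgehog loop were called in 0 of 12 cases in each comparison, with at most 1 of 12 at an unadjusted p under 0.05. In SSC against Thy, where 17.7% of all genes had such a p, that gene was Ptch1, the hedgehog receptor and a target of the pathway, at 1.12 ± 0.47 (adjusted p = 0.25). For JUN in Thy, where 3.04% had one, it was Nkx3-2, a repressor that keeps chondrocytes immature, at 1.13 ± 0.48 (adjusted p = 0.985). Ihh, the hedgehog ligand of prehypertrophic cells, read 9.89 and 7.22 in SSC JUN, against 8.56 and 6.96 in SSC -JUN, then 8.46 and 7.24 in CSP JUN, against 6.89 and 9.03 in CSP -JUN. In Thy it lay between 6.87 and 7.42. Its highest arrays were thus SSC JUN 1 and CSP -JUN 2. Partners of the PTH receptor, such as its cAMP effectors and arrestins, gave 0 of 10 called by limma. At most 3 of 10 had an unadjusted p under 0.05, in SSC against Thy, beside 17.7% of all genes. In CSP against Thy, Arrb2, an arrestin, stood at -0.73 ± 0.21 (adjusted p = 0.176) and Prkaca, a catalytic subunit of protein kinase A, at -0.43 ± 0.20 (adjusted p = 0.417).

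Mef2c, the driver of hypertrophy, did not share the order of the SOX trio. SSC JUN arrays had 11.43 and 10.33, against 10.22 and 10.46 in SSC -JUN. CSP JUN arrays had 10.94 and 8.70, against 9.91 and 10.93 in CSP -JUN. Thy JUN cells stood at 11.15 and 10.75, against 10.62 and 11.23 in Thy -JUN cells. The arms overlapped in each population, and CSP JUN 2 was the lowest of all 12 arrays. Its group means were 10.88 ± 0.78 in SSC JUN and 10.34 ± 0.17 in SSC -JUN, 9.82 ± 1.58 in CSP JUN and 10.42 ± 0.72 in CSP -JUN, and 10.95 ± 0.28 in Thy JUN and 10.92 ± 0.43 in Thy -JUN. Both Thy groups thus came first, followed by SSC JUN, CSP -JUN, SSC -JUN and CSP JUN, with overlap between all neighbours. Of its kin, the histone deacetylases that bind it and Sik3, a kinase that acts on these deacetylases, 0 of 7 tested genes were called by limma. At most 2 of 7, in SSC against Thy, had an unadjusted p under 0.05, beside 17.7% of all genes. These were Hdac7, at -1.03 ± 0.29 (adjusted p = 0.131), and Hdac5, at -0.75 ± 0.32 (adjusted p = 0.251), both class IIa deacetylases. For JUN in SSC, Hdac5 stood at 1.11 ± 0.46 and Mef2d at 0.87 ± 0.41 (adjusted p = 0.69 for both).

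By the probe set used, Trps1 was the one regulator whose SSC arrays were lower with JUN, and its other probe sets did not all share this. It stood at 10.78 and 10.91 in SSC JUN, against 11.10 and 11.48 in SSC -JUN, and the arms did not overlap. CSP JUN arrays had 12.21 and 10.16, against 11.39 and 11.95 in CSP -JUN. Thy JUN arrays had 10.09 and 10.55, against 9.94 and 11.04 in Thy -JUN. In CSP and Thy the arms overlapped, and in SSC the array of mouse 4, high in cartilage genes, was the lowest of 4. Trps1 averaged 10.85 ± 0.09 in SSC JUN and 11.29 ± 0.27 in SSC -JUN, 11.19 ± 1.45 in CSP JUN and 11.67 ± 0.40 in CSP -JUN, and 10.32 ± 0.32 in Thy JUN and 10.49 ± 0.78 in Thy -JUN. By this probe set the JUN mean was the lower one in each population, while 1 of its 4 probe sets was higher with JUN in SSC and 1 of 4 in Thy. CSP -JUN was highest, then SSC -JUN, CSP JUN, SSC JUN, Thy -JUN and Thy JUN, with overlap between all neighbours. Of 6 GATA genes, the kin of TRPS1, 3 were bright enough to be tested and 0 were called by limma, with 0 at an unadjusted p under 0.05. In SSC, Gata4 stood at -0.71 ± 0.41 and Gata6 at -0.58 ± 0.47 for JUN minus -JUN (adjusted p = 0.69 for Gata4 and 0.713 for Gata6).

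The order of arrays set 4 regulators apart from the other 3. SSC JUN 1, CSP JUN 1 and CSP -JUN 2 were the 3 highest arrays for Sox5, Sox6, Sox9 and Fgfr3 and for none of Pth1r, Mef2c and Trps1. The lowest of these 3 arrays and the highest of the other 9 read 9.89 and 9.46 for Sox5, 10.09 and 9.52 for Sox6, 10.40 and 9.16 for Sox9, and 11.06 and 9.58 for Fgfr3. Of the 16 probe sets of the 4 genes, 13 had the same 3 arrays on top, and the 3 below the brightness filter did not, against 0 of 10 for the other 3 genes and 1.64% of all 23034 probe sets that passed. Among the 13, 1 Sox5 and 1 Sox6 probe set passed the filter in these 3 arrays alone, so the filter itself favours this order. The arrays were picked on chondrocyte markers after their values were seen, so these counts are descriptions without a test.

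Cartilage matrix genes, the textbook targets of the SOX trio, had the same 3 arrays on top in 18 of 20 cases, Matn4 and Epyc being the exceptions, and the 12 chondrocyte markers in 12 of 12. Over all 12516 genes tested the share was 1.85%. All 12 markers are among the 20 matrix genes, and the 3 arrays were picked on them. Both counts thus largely follow from that choice and are not separate. Outside the markers, Col11a1, Chad, Snorc, Fmod, Cytl1 and Chadl shared the order. Col2a1, the main collagen of cartilage, read 15.48 in SSC JUN 1, 15.38 in CSP JUN 1 and 15.33 in CSP -JUN 2, with 11.33 to 14.22 in the other 9 arrays. Hypertrophy genes shared the order in 3 of 10 cases, Col10a1, Panx3 and Vegfa. Col10a1, the collagen of hypertrophic cartilage, spread over 12.85 and 9.21 in SSC JUN, against 11.82 and 11.14 in SSC -JUN, and over 12.06 and 7.24 in CSP JUN, against 6.17 and 12.90 in CSP -JUN. In Thy it stayed between 6.30 and 8.28. Osteoblast markers shared the order in 0 of 7 cases, though their mean was highest in SSC JUN 1, at 11.82, with 8.63 to 10.82 in the other arrays. The Schwann cell marker mean was also highest there, at 11.55, with 8.83 to 11.20 elsewhere. This rank leans on Ncan, at 12.80 there and 7.65 to 10.42 elsewhere. Against Thy -JUN 1, Mbp, Pmp22 and Foxd3 were lower in SSC JUN 1, and Sox10, S100b and Erbb3 were higher. The part of these cell types in the regulators' values was not tested.

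**Figure D2:**
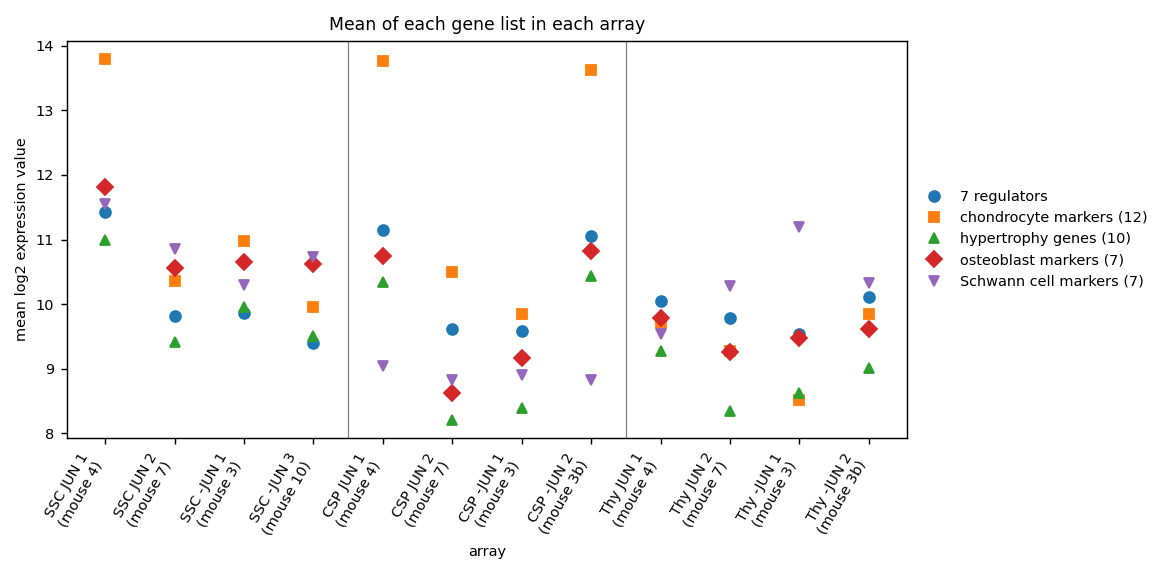
Mean log2 expression per array of 7 chondrocyte regulators, 12 chondrocyte markers, 10 hypertrophy genes, 7 osteoblast markers and 7 Schwann cell markers, with JUN left of -JUN in each population. Each point is 1 array. Chondrocyte markers stand at 13.63 to 13.80 in SSC JUN 1, CSP JUN 1 and CSP -JUN 2 and at 8.52 to 10.98 elsewhere.

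Across the 12 arrays the correlation with the mean of the 12 chondrocyte markers was 0.96 for Fgfr3, 0.94 for Sox9, 0.85 for Sox5, 0.82 for Sox6, 0.64 for Trps1, 0.51 for Pth1r and 0.29 for Mef2c. Without the 3 arrays, over the other 9, Fgfr3 kept 0.68 and Sox9 0.46, while Sox5 had -0.06, Sox6 0.09, Trps1 0.45, Pth1r -0.12 and Mef2c -0.44. The tie of Sox5 and Sox6 to the cartilage genes thus rested on the 3 arrays. Among the regulators, Sox5 and Sox6 correlated at 0.91 over 12 arrays and 0.53 over 9, Sox9 and Fgfr3 at 0.95 and 0.53, and Sox6 and Pth1r at 0.83 and 0.80. Sox6 and Trps1 had 0.12 over 12 arrays and -0.81 over 9. These values describe arrays that share mice and fall into clusters, and carry no test.

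**Figure D3:**
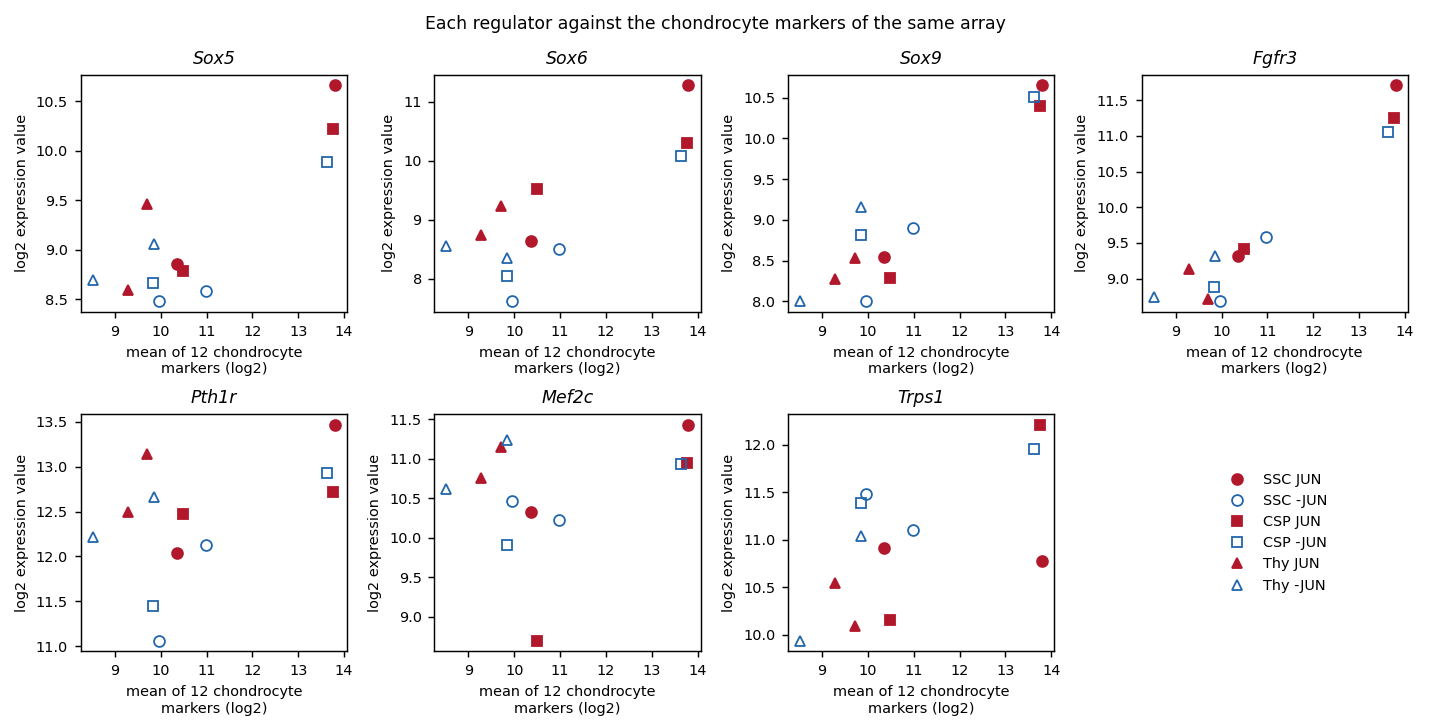
Log2 expression of each regulator (vertical) against the mean log2 expression of 12 chondrocyte markers (horizontal), 1 point an array. Sox5, Sox6, Sox9 and Fgfr3 are highest in the 3 arrays at the right, and Mef2c shows a correlation of 0.29.

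What JUN induction does to these genes in SSC was the first comparison of the design. On average 6 of 7 regulators were higher in SSC JUN than in SSC -JUN, beside 56.3% of all genes, and their median difference was 1.16, beside 0.08 for all genes. By limma with Benjamini-Hochberg adjustment, 0 of 7 passed the threshold of 0.05, as did 0% of the 12516 genes, and 1 of 7 had an unadjusted p under 0.05, beside 6.5% of genes. That gene was Sox6, which averaged 9.96 ± 1.86 in SSC JUN and 8.06 ± 0.62 in SSC -JUN, a difference of 1.90 ± 0.83 (SE, 95% interval 0.07 to 3.73, adjusted p = 0.69). Fgfr3 followed with 1.38 ± 0.89, Sox5 with 1.23 ± 0.66, Pth1r with 1.16 ± 0.60, Sox9 with 1.14 ± 0.86 and Mef2c with 0.54 ± 0.66, and Trps1 stood at -0.44 ± 0.60 (adjusted p 0.69 to 0.819). The arms did not overlap for 3 of 7, Sox5, Sox6 and Trps1, beside 38.4% of genes, so this count is near the background. Among the 4 probe sets of Sox6, only the one used had an unadjusted p under 0.05. Markers of other cell types differed in the same comparison. None of 8 adipocyte markers was higher in SSC JUN, their mean read 9.75 and 10.77 in SSC JUN, against 11.04 and 11.33 in SSC -JUN, and 3 of 8 had an unadjusted p under 0.05, Fabp4 at -1.63 ± 0.56, Lpl at -2.04 ± 0.80 and Adipoq at -1.30 ± 0.58 (adjusted p = 0.69 for each). The Schwann cell marker mean read 11.55 and 10.86 in SSC JUN, against 10.30 and 10.73 in SSC -JUN, and 5 of 7 were higher on average. Ncan, on which the separation of these means leans, stood at 3.09 ± 0.62 (adjusted p = 0.69). It read 12.80 in SSC JUN 1, 10.42 in SSC JUN 2 and 8.47 and 8.58 in SSC -JUN. Lower with JUN were Mbp, at 11.81 and 12.43 against 12.48 and 13.01, and Pmp22, at 13.84 and 13.88 against 14.05 and 14.01. Leaving out SSC JUN 2 or mouse 7 leaves SSC JUN 1 as the only SSC JUN array, so calls of these markers in those settings are not counted here. The part of these cells in the regulators' values was not tested.

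These sizes were smaller without the 3 arrays. Leaving out the arrays rich in cartilage genes, the difference between SSC JUN and SSC -JUN was 0.58 ± 0.49 for Sox6, with 1 array left in SSC JUN, whose spread is taken from the other groups, 0.33 for Sox5, 0.18 for Fgfr3, 0.09 for Sox9, 0.45 for Pth1r, -0.01 for Mef2c and -0.38 for Trps1. Without mouse 7, where SSC JUN 1 is the only SSC JUN array left, the value for Sox6 was 3.22. Over all ways of leaving out 1 array or 1 mouse the lowest was 0.58. The dated title runs with the same array, since SSC JUN 1 is the only SSC array without one. With the dated title as a term the differences were those without the 3 arrays, with 0.58 ± 0.74 for Sox6 (adjusted p = 1). The poly-A controls, RNAs added to each sample before labelling, also differed between the arms, with means of 11.28 and 9.98 in SSC JUN, against 8.50 and 9.12 in SSC -JUN. With their mean as a covariate, Sox6 stood at -0.19 ± 1.05, Sox5 at -0.18 ± 0.92, Fgfr3 at 0.13 ± 1.38, Sox9 at 0.18 ± 1.36 and Pth1r at 0.01 ± 0.86 (adjusted p = 1 for each), so the direction of Sox5 and Sox6 in SSC turned with it. Of the 20 cartilage matrix genes, 19 were higher in SSC JUN on average, with a median of 1.44, and 0 were called by limma, with 0 at an unadjusted p under 0.05. Chadl was nearest to the threshold at 1.02 ± 0.62, then Col11a2 at 2.44 ± 1.66 (adjusted p = 0.69 and 0.696). In the hypertrophy list 7 of 10 genes were higher on average, with Dlx5, a homeobox factor of bone and hypertrophic cartilage, at 0.96 ± 0.38 (adjusted p = 0.69), and 0 were called by limma, with 1 of 10 at an unadjusted p under 0.05.

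In CSP, 4 of 7 regulators were higher in JUN on average, beside 57% of genes. None of 7 passed by limma, as did 0% of genes, 0 of 7 had an unadjusted p under 0.05, beside 2.3% of genes, and 0 of 7 had arms that did not overlap, beside 31.2%. Sox6 had the lowest p, at 0.85 ± 0.83 (95% interval -0.98 to 2.68, adjusted p = 0.995), and Mef2c stood at -0.60 ± 0.66, Trps1 at -0.49 ± 0.60 and Sox9 at -0.32 ± 0.86. Each arm of CSP holds 1 array rich in cartilage genes, and without the 3 arrays Sox6 stood at 1.47 ± 0.57 (adjusted p = 0.56), Trps1 at -1.23 and Mef2c at -1.21, with 1 array left in each CSP arm, so that their errors and p-values assume that these 2 arrays vary as those of the other groups do.

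In Thy, where no array stood apart in cartilage genes, 4 of 7 regulators were higher in JUN on average, beside 53.6% of genes. Again 0 of 7 passed by limma, as did 0% of genes, and 0 of 7 had an unadjusted p under 0.05, beside 3.04%. By the probe sets used, Sox6 alone had arms that did not overlap, beside 28.6% of genes, with a difference of 0.53 ± 0.83 (95% interval -1.30 to 2.36, adjusted p = 0.985). Its other probe sets kept the arms apart the other way, with differences of -1.10 to -1.02, so no direction can be given for Sox6 in Thy. The other 6 regulators lay between -0.18 for Sox9 and 0.37 for Pth1r. For all but Pth1r the 95% interval held changes of more than 2-fold in both directions.

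Averaged over the populations, Sox6 stood at 1.09 ± 0.48 for JUN minus -JUN (95% interval 0.04 to 2.15, adjusted p = 0.396) and Pth1r 0.65 ± 0.34 (adjusted p = 0.415), and the other 5 lay between -0.37 for Trps1 and 0.55 for Fgfr3. Here 0 of 7 passed, as did 0% of genes, and 1 of 7, Sox6, had an unadjusted p under 0.05, beside 12.5% of genes. On average 5 of 7 were higher with JUN, beside 57.1%. Since arrays of one mouse enter all 3 populations, these p-values may be too low. This rests on 1 of 4 Sox6 probe sets, since the other 3 stood at 0.06 to 0.18 (unadjusted p 0.727 to 0.907). The probe set used gave 0.86 ± 0.28 without the 3 arrays (adjusted p = 0.367), 0.65 ± 0.38 with the dated title as a term (adjusted p = 0.655) and -0.12 with the poly-A covariate. None of the 7 had arms that did not overlap over the 6 arrays of each, beside 0.376% of genes. A test for a difference of the JUN effect between populations called 0 of 7 by limma, as it did 0% of genes, and 0 of 7 had an unadjusted p under 0.05, beside 1.15% (p 0.444 to 0.922, adjusted p = 1 for each).

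**Figure D4:**
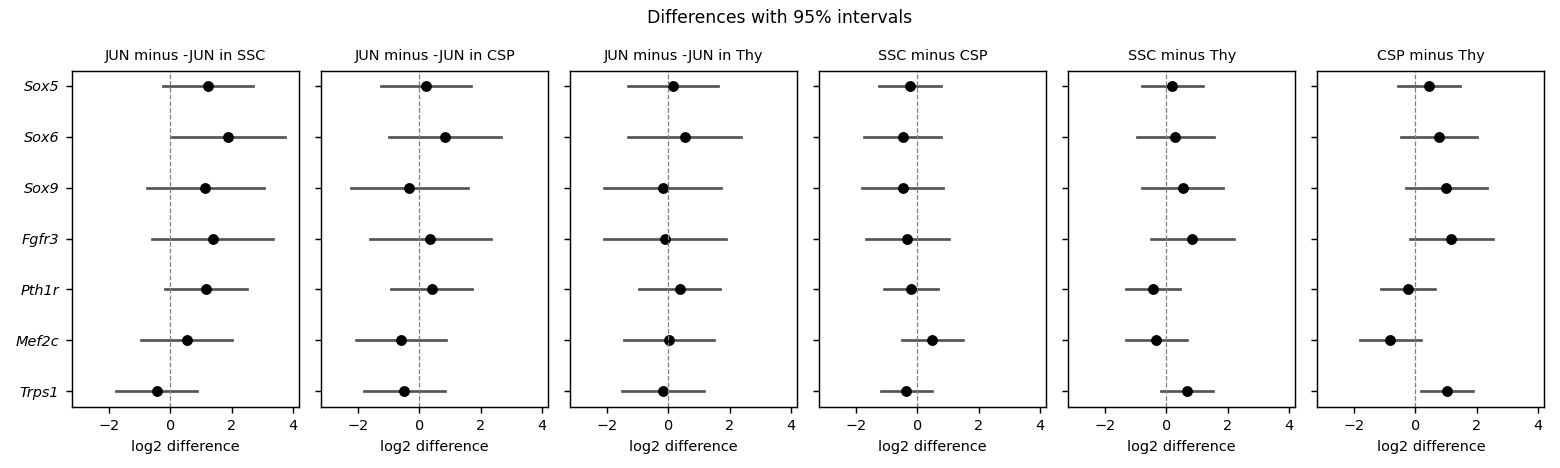
Log2 differences of the 7 regulators with 95% intervals from limma, for JUN minus -JUN in SSC, CSP and Thy and for SSC minus CSP, SSC minus Thy and CSP minus Thy. The interval lies above 0 for Sox6 with JUN in SSC, at 0.07 to 3.73, and for Trps1 in CSP minus Thy, at 0.18 to 1.87, and no value passed after adjustment.

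The sorted populations were compared over both arms, 4 arrays against 4. Between CSP and Thy, 5 of 7 regulators were higher in CSP on average, beside 45.4% of genes, and the median difference was 0.77, beside -0.04 for all genes. None passed by limma, beside 0.991% of genes, and 1 of 7 had an unadjusted p under 0.05, beside 12%. This was Trps1, which averaged 11.43 ± 0.91 in CSP and 10.41 ± 0.50 in Thy (SD, n = 4), a difference of 1.02 ± 0.39 (95% interval 0.18 to 1.87, adjusted p = 0.322). Fgfr3 had 1.17 ± 0.62 (adjusted p = 0.475), Sox9 1.01 ± 0.60 (adjusted p = 0.524) and Mef2c -0.82 ± 0.46 (adjusted p = 0.499). The groups overlapped for all 7, while 6.11% of genes did not overlap. With the mouse as a block the sizes were the same and 4 of 7 had an unadjusted p under 0.05, beside 13% of genes, namely Sox9, Trps1, Fgfr3 and Mef2c (adjusted p 0.208 to 0.313). With the poly-A covariate these were Sox6 at 1.54, Fgfr3 at 1.75, Sox9 at 1.47 and Sox5 at 0.98 (adjusted p 0.417 to 0.691).

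Within mice, Sox9 was higher in CSP than in Thy by 1.88 in mouse 4, 1.35 in mouse 3b and 0.82 in mouse 3, and the difference was 0 in mouse 7. For Fgfr3 the difference was 2.53 in mouse 4, 1.75 in mouse 3b, 0.28 in mouse 7 and 0.14 in mouse 3, so it was largest in the mice whose CSP array was rich in cartilage genes. Mef2c was lower in CSP in all 4 mice, by -0.21 in mouse 4, -0.30 in mouse 3b, -2.05 in mouse 7 and -0.71 in mouse 3. For Trps1 the 4 differences were 2.12, 0.91, -0.39 and 1.45 in mice 4, 3b, 7 and 3, with mouse 7 the exception. Without the 3 arrays, Mef2c in CSP minus Thy stood at -1.63 ± 0.34 (adjusted p = 0.102), Trps1 at 0.37, Fgfr3 at 0.17 and Sox9 at 0.06. Cartilage matrix genes were higher in CSP than in Thy in 19 of 20 cases on average, with a median of 2.03. By limma 0 were called and 9 of 20 had an unadjusted p under 0.05, beside 12% of all genes. Cytl1, a small secreted cartilage protein, was nearest, at 4.00 ± 0.86 (adjusted p = 0.0536), then Matn3, a matrilin of cartilage, at 3.85 ± 0.93 (adjusted p = 0.0915). With the mouse as a block 7 of 20 were called, namely Cnmd, Col11a1, Col2a1, Col9a1, Cytl1, Hapln1 and Matn3. Over all arrays, Cytl1 was called with the stricter filter, with the mean of a gene's probe sets and with eBayes with trend and robust. Cytl1 and Matn3 were called with the dated title as a term. Leaving out CSP JUN 2 called 3 (Cytl1, Hapln1 and Matn3), leaving out SSC JUN 1 called 2 (Cytl1 and Matn3) and leaving out mouse 7 called Cytl1. Leaving out the 3 arrays called 0, and the median was 0.31.

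Between SSC and Thy, 5 of 7 regulators were higher in SSC on average, beside 42.3% of genes, 0 of 7 passed by limma, beside 0.391% of genes, and 0 of 7 had an unadjusted p under 0.05, beside 17.7%. Trps1 had the lowest p, at 0.66 ± 0.39 (95% interval -0.18 to 1.51, adjusted p = 0.375), and it was higher in SSC in each of the 3 mice that gave both, by 0.69 in mouse 4, 0.36 in mouse 7 and 1.16 in mouse 3. Fgfr3 had 0.84 ± 0.62 and Pth1r -0.45 ± 0.40 (adjusted p = 0.557), and none of the 7 kept its groups apart, beside 7.59% of genes. With the mouse as a block, 2 of 7 had an unadjusted p under 0.05, beside 9.86% of genes, Sox9 at 1.15 ± 0.35 (adjusted p = 0.305), against 0.53 without the block, and Fgfr3 at 1.43 ± 0.48 (adjusted p = 0.362). With the poly-A covariate, Sox6 stood at 2.37 ± 0.81 (adjusted p = 0.624), against 0.29 without it, Fgfr3 at 2.40 ± 1.04, Sox5 at 1.65 ± 0.71 and Trps1 at 0.10 ± 0.71. The poly-A means did not overlap, at 8.50 to 11.28 in SSC and 11.37 to 12.32 in Thy. The covariate thus runs together with the population here, and these sizes reach beyond the arrays measured. With the dated title as a term, Fgfr3 stood at 2.67, Sox9 at 2.24, Sox6 at 2.23 and Sox5 at 1.60 (adjusted p 0.286 to 0.398), and in that fit the level of SSC rests on SSC JUN 1 alone, 1 of the 3 arrays rich in cartilage genes. When the 3 arrays were left out Fgfr3 stood at 0.23 ± 0.29 (adjusted p = 0.632), and Sox5, Sox6 and Sox9 lay at -0.28, -0.33 and -0.04, so the sizes for these 4 genes depended on the setting. In the hypertrophy list 0 of 10 were called and 4 of 10 had an unadjusted p under 0.05, namely Mmp13, a collagenase of hypertrophic cartilage, at 2.64 ± 0.61 (adjusted p = 0.0884), Ibsp at 2.78 ± 0.65 (adjusted p = 0.0904), Col10a1 at 4.18 ± 1.35 (adjusted p = 0.169) and Panx3 at 1.46 ± 0.50 (adjusted p = 0.182). Among osteoblast markers 0 of 7 were called and 4 of 7 had an unadjusted p under 0.05, including Phex at 3.16 ± 0.70 (adjusted p = 0.0788) and Dmp1 at 3.24 ± 0.72 (adjusted p = 0.0809), and Ibsp is in both lists. Mmp13, Ibsp and Col10a1 of the hypertrophy list, Dmp1 and Ibsp of the osteoblast markers and Hapln1 and Matn3 of the matrix genes were called once the 3 arrays were left out. Leaving out CSP JUN 2 called Mmp13, Ibsp and Phex, leaving out CSP JUN 1 or mouse 4 called Mmp13, and leaving out Thy JUN 2 or mouse 7 called Phex. A fit of only the arrays compared called Mmp13, Ibsp, Dmp1 and Hapln1. The part of osteoblasts in these values was not tested.

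Between SSC and CSP, 1 of 7 regulators, Mef2c, was higher in SSC on average, beside 42.2% of genes, at 0.49 ± 0.46 (95% interval -0.51 to 1.49, adjusted p = 0.937). The other 6 lay between -0.48 for Sox6 and Sox9 and -0.22 for Pth1r. Of them, 5 turned above 0 with the mouse as a block (0.02 to 0.26), with the poly-A covariate (0.30 to 0.83) and with the dated title as a term (0.88 to 1.49), Trps1 being the exception. With the dated term the level of SSC rests on SSC JUN 1 alone. The poly-A means ran with the dated titles, at 8.50 to 9.98 with a date and 9.98 to 12.32 without, so these settings are not separate checks. By limma 0 of 7 passed, beside 0.431% of genes, 0 of 7 had an unadjusted p under 0.05, beside 6.51%, and 0 of 7 had groups that did not overlap, beside 4.06%. Within mice, Mef2c was higher in SSC in all 3 that gave both, by 0.49 in mouse 4, 1.63 in mouse 7 and 0.32 in mouse 3, and without the 3 arrays it stood at 0.99 ± 0.36 (adjusted p = 0.443). All 20 cartilage matrix genes were lower in SSC on average, with a median of -0.55, and 0 were called, with 0 at an unadjusted p under 0.05. Within mice their mean was not lower throughout, at 13.12 in SSC and 13.07 in CSP of mouse 4, 10.10 in SSC and 10.35 in CSP of mouse 7, and 10.58 in SSC and 9.65 in CSP of mouse 3. With the mouse as a block 13 of 20 were higher in SSC, with a median of 0.11, so no direction can be given for this list.

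The probe set with the highest mean stood for each gene, and the other probe sets were fitted too. Between CSP and Thy, all 4 Sox6 probe sets were higher in CSP, by 0.77 to 2.37, with a lowest adjusted p of 0.113 over the 23034 probe sets, and all 4 Trps1 probe sets by 0.61 to 1.17 (lowest adjusted p = 0.131). All 5 Mef2c probe sets were lower in CSP than in Thy, by -0.82 to -0.13, and higher in SSC than in CSP, by 0.33 to 0.97. The probe sets of one gene thus shared a direction in these comparisons, and 0 of them were called. For JUN in SSC, 5 of 5 Sox5, 4 of 4 Sox6, 2 of 2 Sox9 and 2 of 2 Fgfr3 probe sets were higher, by 0.55 to 1.38 for Sox5, 0.73 to 1.90 for Sox6, 1.14 to 1.95 for Sox9 and 1.38 to 1.93 for Fgfr3. Those of Trps1 and Mef2c disagreed there, with 1 of 4 higher for Trps1 (-0.44 to 0.14) and 3 of 5 for Mef2c (-0.15 to 0.54), so no direction can be given for them in SSC. For JUN in Thy, 1 of 4 was higher for Sox6 (-1.10 to 0.53), 2 of 5 for Sox5 (-1.57 to 0.32), 1 of 4 for Trps1 (-0.54 to 0.19) and 1 of 5 for Mef2c (-0.50 to 0.02). No direction can be given for these genes in Thy. For JUN in CSP, 3 of 5 were higher for Sox5 (-0.53 to 0.45). Probe sets also disagreed for Sox5 with JUN on average, in SSC minus CSP and in SSC minus Thy, for Trps1 in SSC minus CSP and for Mef2c in SSC minus Thy.

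**Figure D5:**
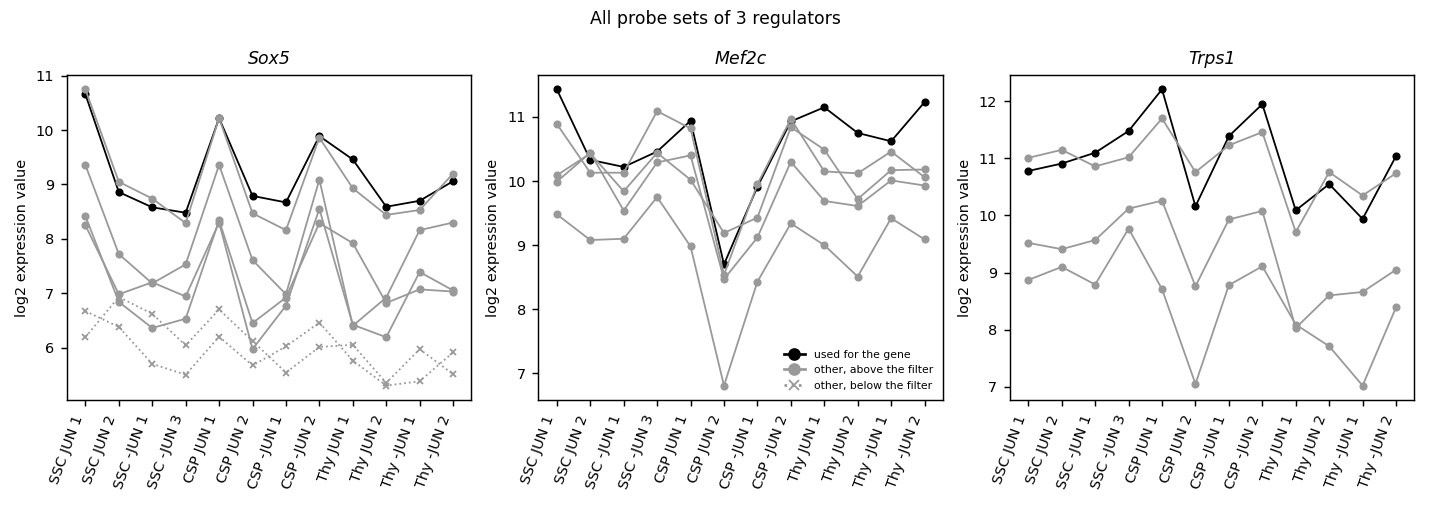
Log2 expression of every probe set of Sox5, Mef2c and Trps1 in the 12 arrays, with JUN left of -JUN in each population. Each line is 1 probe set, black for the one used and dotted below the brightness filter, and levels of different probe sets are not comparable. In Sox5, 5 of 7 probe sets passed the filter, and in Mef2c the lowest points are those of CSP JUN 2.

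Genes whose levels followed a regulator most closely over the 12 arrays were named by correlation alone. For Fgfr3 these were Col9a3 at 0.99, a cartilage collagen chain, Slc8a3 at 0.97 and Matn1 at 0.97, a cartilage matrilin, and for Sox9 they were Myo7a at 0.97, Foxa3 at 0.97 and Acan, the main proteoglycan of cartilage, at 0.96. Without the 3 arrays these correlations were 0.84 for Col9a3, 0.67 for Slc8a3 and 0.79 for Matn1, and 0.96 for Myo7a, 0.73 for Foxa3 and 0.80 for Acan. Sox5 was followed by Fgfrl1, Fzd9 and Krt16, each at 0.96, and Sox6 by Stk32b at 0.96, Notum at 0.95 and Syne4 at 0.95. Over the other 9 arrays these were 0.76 for Fgfrl1, 0.77 for Fzd9 and 0.64 for Krt16, and 0.88 for Stk32b, 0.78 for Notum and 0.95 for Syne4. Pth1r had Mfge8 and Zdhhc12 at 0.97 and Cpz at 0.96, and over the other 9 arrays these kept 0.97, 0.98 and 0.95. Mef2c had Dync1i1 at 0.91, Siah2 at 0.87 and Alpl, the alkaline phosphatase of mineralising cells, at 0.86, and Trps1 had Rin2 at 0.94 with Chordc1 and Jak2 at 0.93, with 0.81 to 0.91 for these 6 over the other 9 arrays. Fgfr3 and Sox9 thus had cartilage matrix genes among their 3 closest, and Mef2c had a gene of mineralisation.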

How the data were processed

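The authors deposited 1 log2 value per probe set and array, and the submitters' processing notes name RMA as the method. RMA corrects background, brings all arrays to one distribution and summarises probes, which compresses dim differences. Its version is not given in the sources used here. Array medians lay between 7.65 and 7.76, and the number of arrays limits the precision. Of 45101 probe sets, 64 controls were left out, and 34945 had 1 gene symbol, 932 several and 9160 none. A probe set was kept if above its array's median in at least 2 arrays (23034), and a gene was read through its kept probe set of highest mean (12516 genes).

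The two-sided moderated test of limma 3.58.1 (lmFit and eBayes, under R 4.3.3) was used, and p-values were adjusted by Benjamini-Hochberg across all 12516 genes, with 0.05 as the threshold. JUN was tested among 6 group means (6 residual degrees of freedom) and the populations in a model of population and arm (8 residual degrees of freedom). The scripts were tested on simulated data. Titles give the mouse, which pairs the populations. Deviations of same-mouse arrays correlated at -0.21 to 0.43, and with 2 arrays a group they mirror each other and cannot show the pairing. Alternatives covered the filter, the choice of probe set, centring, eBayes settings, a poly-A control covariate, the dated title as a term, the replicate block, a random mouse block and leaving out arrays or mice. All regulators were named, with, from each gene list, those called or up to 4 of lowest p and, per regulator, the 3 genes of highest correlation. The regulators, lists and tests were chosen with earlier results of these data known. Python 3.11.15 with pandas 2.3.3 and numpy 2.4.6 was used.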

Additional observations from a re-analysis of the deposited data

How the results depend on the processing

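No regulator passed the threshold in the reported setting or in any alternative run, so no call of theirs was gained or lost, while directions and sizes moved. The lowest adjusted p of a regulator over the leave-one-out settings was that of Sox5 in the average JUN effect without mouse 7. It was not under the threshold, and it rests on mouse 4 as the only JUN mouse. A stricter filter, no filter, eBayes with trend and robust, a random mouse block and a fit of only the arrays compared reversed 0 values. Over all genes, the block moved the calls to 8 in SSC minus CSP (54 without it), 4 in SSC minus Thy (49) and 125 in CSP minus Thy (124). The dated title as a term moved them to 23, 10 and 155, the poly-A covariate to 65, 0 and 46, and leaving out the 3 arrays to 8, 138 and 18. Without mouse 7 the JUN arm is mouse 4 alone, with 1 array in each population, so calls for JUN in that setting are not counted here. The same replicate number does not pair the arms, since the titles give different mice in them. Deviations of arrays with the same number correlated at -0.18 to 0.51. With 2 arrays a group the deviations mirror each other, so these correlations cannot show pairing or its absence. With the mean of a gene's probe sets, the reversed values were for JUN in Thy Mef2c -0.20, Sox5 -0.44 and Sox6 -0.67, and for SSC minus Thy Mef2c 0.14. With each array centred on its median, the reversed values were for JUN on average Mef2c 0.01. With the replicate block (replicate number for JUN, mouse for the populations), the reversed values were for JUN on average Mef2c 0.10, for SSC minus CSP Fgfr3 0.26, Pth1r 0.25, Sox5 0.08, Sox6 0.02 and Sox9 0.14, and for SSC minus Thy Pth1r 0.01. With the poly-A control signal as a covariate, the reversed values were for JUN in SSC Mef2c -0.10, Sox5 -0.18, Sox6 -0.19 and Trps1 0.16, for JUN in CSP Fgfr3 -0.45, Pth1r -0.34, Sox5 -0.69 and Sox6 -0.50, for JUN in Thy Mef2c -0.04, for JUN on average Fgfr3 -0.18, Pth1r -0.02, Sox5 -0.29, Sox6 -0.12 and Sox9 -0.34, for SSC minus CSP Fgfr3 0.65, Pth1r 0.51, Sox5 0.67, Sox6 0.83 and Sox9 0.30, for SSC minus Thy Mef2c 0.30 and Pth1r 0.70, and for CSP minus Thy Pth1r 0.19. With the dated title as a term, chosen after seeing the data, the reversed values were for JUN in SSC Mef2c -0.01, for JUN on average Sox9 -0.14, for SSC minus CSP Fgfr3 1.49, Pth1r 0.88, Sox5 1.16, Sox6 1.46 and Sox9 1.23, and for SSC minus Thy Mef2c 0.60 and Pth1r 0.64. Without the 3 arrays rich in cartilage genes, an alternative chosen after seeing the data, the reversed values were for JUN in SSC Mef2c -0.01, for JUN on average Sox9 -0.21, for SSC minus CSP Fgfr3 0.06 and Trps1 0.31, for SSC minus Thy Sox5 -0.28, Sox6 -0.33 and Sox9 -0.04, and for CSP minus Thy Sox5 -0.23. Leaving out 1 array or 1 mouse gave ranges that changed sign for JUN in SSC in Mef2c -0.01 to 1.09, for JUN in CSP in Fgfr3 -0.73 to 1.44, Mef2c -1.72 to 0.52, Pth1r -0.33 to 1.14, Sox5 -0.50 to 0.94, Sox6 -0.17 to 1.87, Sox9 -1.37 to 0.74 and Trps1 -1.51 to 0.54, for JUN in Thy in Fgfr3 -0.38 to 0.18, Mef2c -0.28 to 0.33, Sox5 -0.29 to 0.58, Sox9 -0.76 to 0.40 and Trps1 -0.72 to 0.38, for JUN on average in Fgfr3 -0.09 to 1.19, Mef2c -0.63 to 0.61, Sox5 -0.15 to 1.22 and Sox9 -0.53 to 0.96, for SSC minus CSP in Fgfr3 -0.94 to 0.15, Mef2c -0.04 to 0.81, Pth1r -0.58 to 0.13 and Sox5 -0.71 to 0.07, for SSC minus Thy in Sox5 -0.28 to 0.40, Sox6 -0.35 to 0.64 and Sox9 -0.04 to 0.88. Trps1 in CSP minus Thy stayed between 0.66 and 1.49, Sox6 for JUN in SSC between 0.58 and 3.22 and on average between 0.44 and 1.75. The cause of the reversals was not tested. With 2 arrays a group, differences near 2-fold could not be told from the spread of most of these genes.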

Other observations

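Single markers from the lists of other cell types were also called between the populations. Adipoq, an adipocyte hormone, was higher in SSC than in Thy by 2.42 ± 0.39 (SE, limma, adjusted p = 0.0296), Tnmd, a tendon marker, was higher in CSP than in Thy by 1.18 ± 0.18 (adjusted p = 0.00816), and Pi16, a fibroblast marker, was lower in CSP than in Thy, at -2.79 ± 0.40 (adjusted p = 0.00727), and lower in SSC than in Thy, at -2.17 ± 0.40 (adjusted p = 0.0447). Eng, which encodes CD105 and is in the endothelial list, was lower in SSC than in CSP, at -1.57 ± 0.24 (adjusted p = 0.0132), and than in Thy, at -1.54 ± 0.24 (adjusted p = 0.0287). Over 27 alternatives the direction of each stayed as given, and the call was lost in 15 for Adipoq, 5 for Tnmd, 3 and 17 for Pi16, and 11 and 14 for Eng, in the order of these values. Of the adipocyte list, 1 of 8 was called and 6 of 8 were higher in SSC than in Thy, with a median of 0.10. Tnmd and Pi16 share 1 list, in which 4 of 7 were higher in CSP than in Thy (median 0.27) and 3 of 7 in SSC than in Thy (median -0.17). Of 6 endothelial markers, Eng among them, 1 was higher in SSC than in CSP (median -1.31) and 1 in SSC than in Thy (median -0.51). CD105 is among the surface proteins by which such populations are sorted, so the calls of Eng can follow from the sort itself. None of the 5 red cell precursor markers with values was bright enough to be tested.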
